A study of Homo sapiens with 6 samples.

Results

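The 10 genes described here encode the enzymes of de novo purine synthesis, PPAT, GART, PFAS, PAICS, ADSL, ATIC, IMPDH1, IMPDH2, GMPS and ADSS. They were chosen by name for their place in the pathway, and all 10 were found among the 26364 genes of the table. They were measured by RNA sequencing in MV4-11, an established human cell line of acute myeloid leukaemia with an internal tandem duplication in FLT3, the gene of a receptor tyrosine kinase. In 3 libraries the cells had received the vehicle DMSO and in 3 the compound 22d, known as an inhibitor of the deacetylase HDAC8, at a labelled concentration of 10 nM, and RNA was taken after 18 hours. The labels number the libraries in each group but name no separate cultures. The p-values therefore describe the spread between these samples alone, and that spread may be technical. All results rest on this single cell line.

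De novo synthesis builds the purine ring on phosphoribosyl pyrophosphate (PRPP), with nitrogen from glutamine, glycine and aspartate and one-carbon units from formyl tetrahydrofolate. The common trunk ends at inosine monophosphate (IMP), from which one branch leads to guanosine monophosphate (GMP) and the other to adenosine monophosphate (AMP). Proliferating leukaemia cells draw on this pathway for DNA, RNA and energy carriers, and antifolates, mercaptopurine and mycophenolate act on it or on its products.

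The libraries held between 19995430 and 23749257 reads in genes. Genes with any read numbered 19285 in 22d replicate 3 and 16268 to 17055 in the other libraries, and the source of this difference was not tested. Values are normalized counts, which are read counts divided by 1 size factor per library; these factors were 0.879 to 0.967 with DMSO and 1.02 to 1.19 with 22d. Of the myeloid markers checked, FLT3, CD33, PTPRC, SPI1, LYZ and CSF1R were present in all 6 libraries at 679 normalized counts or more, CD14 reached at most 10.3, and the erythroid genes HBB and HBA1 and the T cell genes CD3D, CD3E and CD2 reached at most 1.68. The summed level of the 9 myeloid markers was 63332 to 80955 normalized counts with DMSO and 38165 to 49113 with 22d, where LYZ and MPO were lower and FLT3, PTPRC, CSF1R and ITGAM higher, and the sum of the epithelial markers KRT8, KRT18 and EPCAM was 296 to 357 with DMSO and 416 to 533 with 22d. Of these KRT8 rose by 1.06, KRT18 did not pass (-0.26, limma adjusted p = 0.25) and EPCAM reached at most 4.20. The part of these shifts in the purine gene values was not tested. In bulk RNA, fewer cells expressing a gene and less of its RNA per cell cannot be told apart.

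All 10 purine synthesis genes were lower with 22d. By limma, with Benjamini-Hochberg adjustment over the 13297 genes tested, 10 of 10 passed at an adjusted p under 0.05, while 29.6% of all genes tested were called lower. All 10 had a mean of at least 10 normalized counts, the minimum for testing, and their lowest value in any library was 463. The median log2 fold change of the 10 was -0.84, against 0.01 over all genes tested. PFAS, PAICS, GART and IMPDH1, 4 of the 10, fell at least 2-fold, where 9.87% of all genes tested did so. For every one of the 10, each 22d library lay below each DMSO library, a separation that 33.3% of all genes tested showed. Summed over the 10 genes, DMSO replicates 1 to 3 held 42837, 40681 and 39666 normalized counts and 22d replicates 1 to 3 held 21304, 25228 and 22087. The 22d sums came to 55.7% of the DMSO sums on average (exact two-sided permutation p = 0.10, the smallest that 3 against 3 samples allow). As a share of all normalized counts in a library, the 10 genes took 0.178% ± 0.0081 with DMSO and 0.115% ± 0.00974 with 22d (SD over 3 libraries each).

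**Figure D1:**
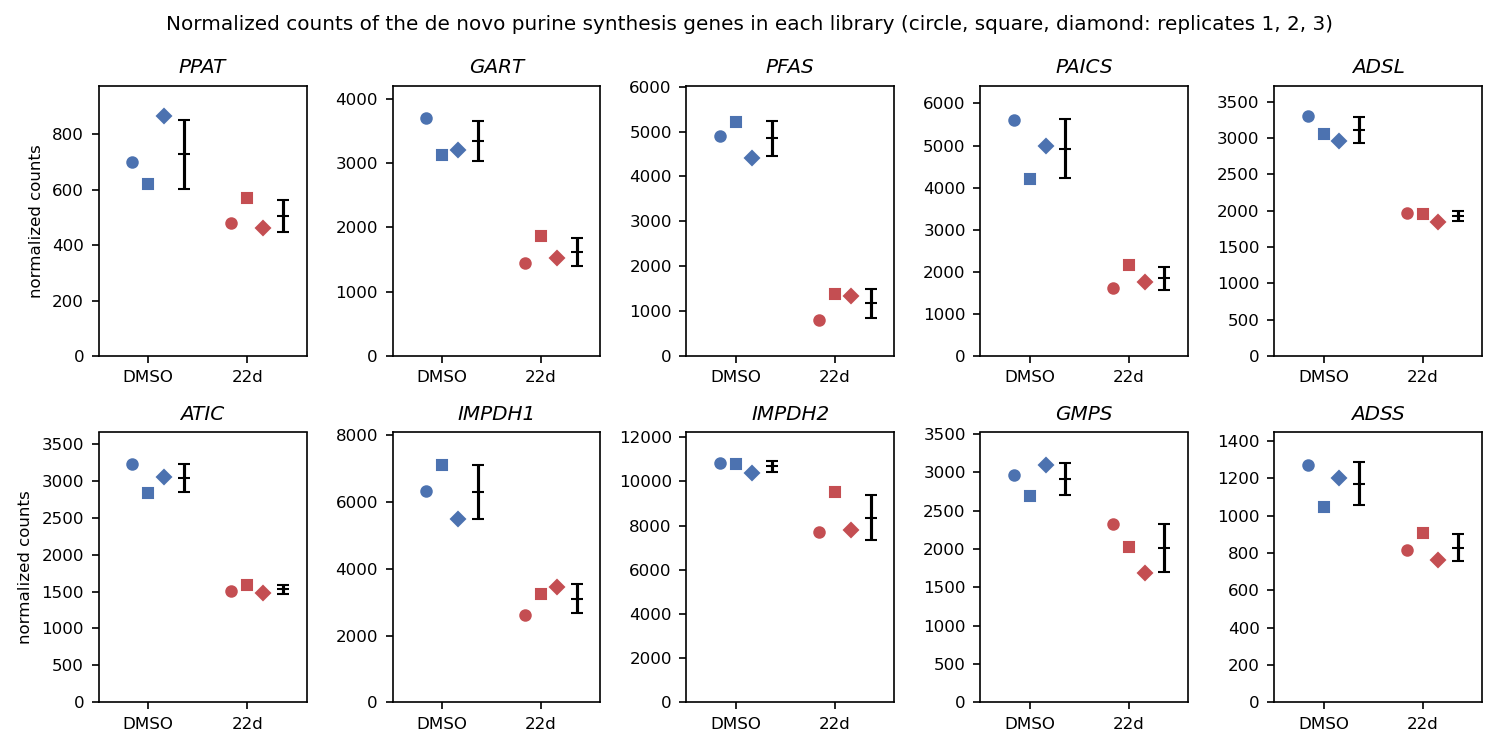
Normalized counts of the 10 de novo purine synthesis genes (vertical axes, each from 0) in the DMSO and 22d libraries (horizontal axis); symbols are single libraries, and the dash with its line is the mean ± SD of 3. In every panel the 22d libraries lie below the DMSO libraries, with the largest proportional difference in means for PFAS (1170 against 4848) and the smallest for IMPDH2 (8350 against 10682).

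The size of the fall depends on how the libraries are scaled. Scaling by library totals moved the median of all genes tested to 0.22 on the log2 scale. Under it 2766 of the 13297 genes tested were called lower, and 7 of the 10 genes passed. PPAT (-0.30, limma adjusted p = 0.123), IMPDH2 (-0.14, adjusted p = 0.226) and ADSS (-0.28, adjusted p = 0.0778) did not. Under quantile normalization 3647 of all genes tested were called lower. Of the 10 genes 8 passed, with IMPDH2 (-0.03, adjusted p = 0.816) and GMPS (-0.29, adjusted p = 0.0765) not past the limma test. GART, PFAS, PAICS, ADSL, ATIC and IMPDH1 passed in both, and no estimate for the 10 genes changed sign. The changes below are those in the deposited scaling.

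**Figure D2:**
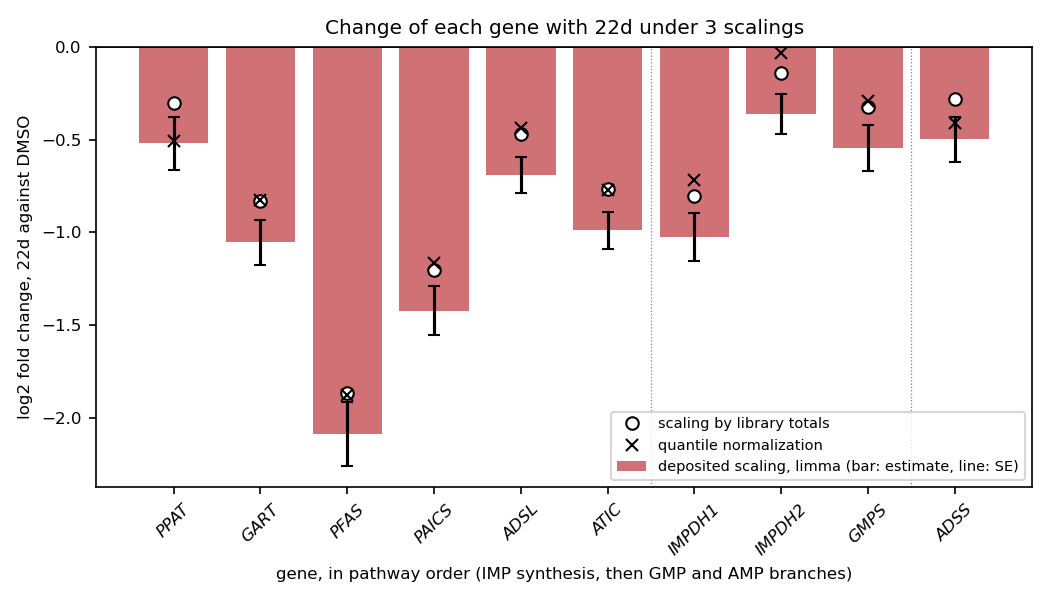
Log2 fold change of 22d against DMSO (vertical axis) for each gene in pathway order (horizontal axis); bars are limma estimates in the deposited scaling with the SE as a line, circles the estimates after scaling by library totals and crosses those after quantile normalization, and dotted lines part the IMP trunk, the GMP branch and the AMP branch. The PFAS bar reaches -2.09 and the IMPDH2 bar -0.36, and with the other scalings IMPDH2 lies at -0.14 and -0.03.

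The pathway opens with PPAT, amidophosphoribosyltransferase, the committed step that moves an amide nitrogen from glutamine onto PRPP. PPAT (chromosome 4, 56393362 to 56435615, minus strand, GRCh38) held 700, 620 and 866 normalized counts in DMSO replicates 1 to 3 and 479, 572 and 463 in 22d replicates 1 to 3. The groups did not overlap, but the lowest DMSO library stood close above the highest 22d library. On the log2 scale PPAT fell by 0.52, with an SE of 0.15 (limma adjusted p = 0.0077). It was the shallowest fall among the trunk genes.

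GART encodes a trifunctional enzyme with glycinamide ribonucleotide synthetase, formyltransferase and aminoimidazole ribonucleotide synthetase activities, and so uses a folate-borne carbon. GART (chromosome 21, 33503931 to 33543491, minus strand) held 3698, 3118 and 3195 normalized counts in DMSO replicates 1 to 3 and 1445, 1866 and 1529 with 22d. Every 22d library was well under every DMSO library, and GART fell by 1.05 (SE 0.12, limma adjusted p = 1.1e-05).

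PFAS, phosphoribosylformylglycinamidine synthase, adds the next glutamine nitrogen, and it fell the most of the 10. PFAS (chromosome 17, 8247618 to 8270491, plus strand) held 4911, 5213 and 4420 normalized counts in DMSO replicates 1 to 3 and 802, 1371 and 1336 with 22d. Replicate 1 was the lowest of the 22d libraries, at well under the level of the others. PFAS fell by 2.09 (SE 0.17, limma adjusted p = 7.4e-07), which is 4.25-fold. Without 22d replicate 1 its log2 fold change was -1.84 (limma adjusted p = 4.9e-08). Of all genes tested, 1.23% had a larger fall.

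PAICS encodes a bifunctional enzyme that carboxylates aminoimidazole ribonucleotide and joins aspartate to the product. PAICS (chromosome 4, 56435741 to 56464579, plus strand) held 5598, 4201 and 4988 normalized counts in DMSO replicates 1 to 3 and 1619, 2159 and 1745 with 22d. No library of one group reached the range of the other. PAICS fell by 1.42 (SE 0.13, limma adjusted p = 2.1e-06), the second in size among the 10.

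PPAT and PAICS act at different steps but lie head to head, transcribed away from each other, with 125 bases between their annotated gene starts. These bases are shown because both genes start at their edges; they hold no annotated exon, and the capitals mark GGGCGG, a GC box, found at 3 places (RefSeq sequence, GRCh38.p14, chr4:56435616-56435740, plus strand, 5′ to 3′, PAICS start at the right).
PPAT to PAICS: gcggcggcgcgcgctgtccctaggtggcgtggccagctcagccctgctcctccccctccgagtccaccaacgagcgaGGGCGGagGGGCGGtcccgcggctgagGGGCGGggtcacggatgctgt

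Despite this shared start region the pair did not fall to the same degree. The ratio of PAICS to PPAT normalized counts was 8.0, 6.78 and 5.76 in DMSO replicates 1 to 3 and 3.38, 3.77 and 3.77 in 22d replicates 1 to 3, with no overlap between the groups. On the log2 scale the ratio was 2.76 ± 0.24 with DMSO and 1.86 ± 0.09 with 22d (SD over 3 libraries each), a difference of -0.90. The exact two-sided permutation p was 0.10, the smallest that 3 against 3 samples allow, and 0.15 after Benjamini-Hochberg adjustment over the 3 ratios examined. Scaling a library by a single factor leaves such a ratio as it is, but quantile normalization does not, and after it the log2 fold changes were -1.16 for PAICS and -0.50 for PPAT.

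ADSL, adenylosuccinate lyase, works once in the trunk and again in the AMP branch. ADSL (chromosome 22, 40346500 to 40390463, plus strand) held 3304, 3057 and 2961 normalized counts in DMSO replicates 1 to 3 and 1972, 1959 and 1841 with 22d. Libraries of a group lay close together, and ADSL fell by 0.69 (SE 0.10, limma adjusted p = 6.9e-05).

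ATIC, the bifunctional enzyme that adds the last folate-borne carbon and closes the ring to IMP, fell by 0.99 (SE 0.10, limma adjusted p = 4.2e-06). ATIC (chromosome 2, 215311817 to 215349773, plus strand) held 3226, 2838 and 3047 normalized counts in DMSO replicates 1 to 3 and 1509, 1594 and 1481 with 22d, so that each 22d library stood near the middle between 0 and the DMSO level. Over the 6 trunk genes the median log2 fold change was -1.02.

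In the GMP branch, IMP dehydrogenase oxidizes IMP to xanthosine monophosphate, the rate-limiting step of guanine nucleotide synthesis, and exists as a pair of isozymes. IMPDH1 (chromosome 7, 128392277 to 128410252, minus strand) held 6311, 7107 and 5488 normalized counts in DMSO replicates 1 to 3 and 2624, 3243 and 3437 with 22d. IMPDH1 fell by 1.02 (SE 0.13, limma adjusted p = 2.1e-05). IMPDH2 (chromosome 3, 49024325 to 49029408, minus strand) held 10854, 10792 and 10401 normalized counts in DMSO replicates 1 to 3 and 7720, 9526 and 7804 with 22d. IMPDH2 fell by 0.36 (SE 0.11, limma adjusted p = 0.011), the least of the 10, and besides the scalings named above it was not past the test without 22d replicate 3 (-0.32, adjusted p = 0.053).

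The isozymes differed in how far they fell. The ratio of IMPDH2 to IMPDH1 normalized counts was 1.72, 1.52 and 1.90 in DMSO replicates 1 to 3 and 2.94, 2.94 and 2.27 in 22d replicates 1 to 3, again without overlap. The log2 ratio was 0.77 ± 0.16 with DMSO and 1.43 ± 0.22 with 22d (SD over 3 libraries each), a difference of 0.66 (exact two-sided permutation p = 0.10, adjusted p = 0.15 over the 3 ratios). IMPDH2 took 26% ± 0.618 of the summed normalized counts of the 10 genes with DMSO and 36.4% ± 1.23 with 22d, whereas PFAS went from 11.8% ± 0.887 to 5.08% ± 1.18 (SD, n = 3 each). The isozyme genes are similar in sequence, and how reads that fit both were counted was not given in the sources used here.

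GMPS, GMP synthetase, completes the branch with a nitrogen from glutamine. GMPS (chromosome 3, 155870536 to 155944026, plus strand) held 2963, 2689 and 3099 normalized counts in DMSO replicates 1 to 3 and 2320, 2029 and 1686 with 22d. Unlike PFAS, GMPS was highest, not lowest, in replicate 1 among the 22d libraries. It fell by 0.55 (SE 0.12, limma adjusted p = 0.0022).

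ADSS, adenylosuccinate synthase (also named ADSS2), opens the AMP branch. ADSS (chromosome 1, 244408494 to 244452134, minus strand) held 1271, 1046 and 1201 normalized counts in DMSO replicates 1 to 3 and 814, 908 and 765 with 22d, and fell by 0.50 (SE 0.12, limma adjusted p = 0.0031). The ratio of GMPS to ADSS, 1 enzyme from each branch, overlapped between the groups. It was 2.33, 2.57 and 2.58 in DMSO replicates 1 to 3 and 2.85, 2.23 and 2.20 with 22d, a log2 difference of -0.05 (exact two-sided permutation p = 0.80, adjusted p = 0.80 over the 3 ratios), while the log2 ratios with 22d had an SD of 0.21 (n = 3). After quantile normalization the order turned, with log2 fold changes of -0.29 for GMPS and -0.41 for ADSS.

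**Figure D3:**
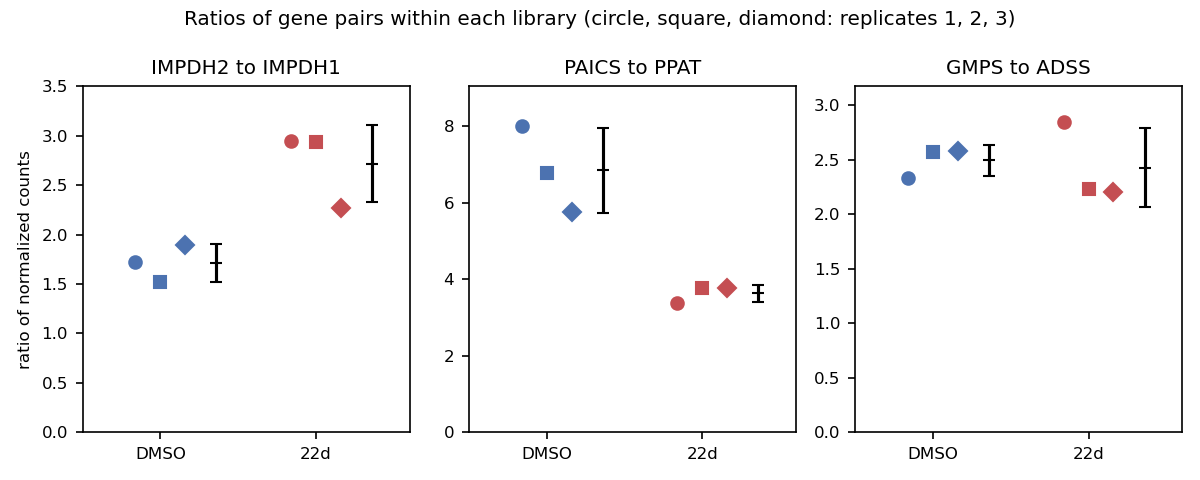
Ratio of normalized counts of 3 gene pairs (vertical axes, each from 0) within each DMSO and 22d library (horizontal axis); symbols are single libraries, and the dash with its line is the mean ± SD of 3. The IMPDH2 to IMPDH1 ratios are all higher with 22d (2.27 or more against 1.90 or less), the PAICS to PPAT ratios all lower (3.77 or less against 5.76 or more), and the GMPS to ADSS ratios overlap.

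In the authors' deposited table, which rests on the same 6 libraries, all 10 genes had an adjusted p under 0.05 with a negative log2 fold change. The share of all genes so called in it was not taken. DESeq2 on the recovered counts called 3822 of the 13297 genes tested lower. The values in the authors' deposited table ran from -2.01 for PFAS to -0.35 for IMPDH2.

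Levels of different genes can be compared per length, here as mean normalized counts per kilobase of annotated coding-transcript exon. With DMSO, IMPDH2 was by far the most abundant at 6502 ± 149 per kilobase (SD, n = 3), followed by IMPDH1 at 2116 ± 272 and ATIC at 1192 ± 76.2. PFAS at 903 ± 74.5, GART at 763 ± 72, PAICS at 735 ± 104 and ADSL at 661 ± 37.6 followed, and neighbours in this stretch overlapped within 1 SD. ADSS stood at 422 ± 41.5, GMPS at 333 ± 23.9 and PPAT, the gene of the committed step, lowest at 198 ± 34.1. With 22d, IMPDH2, IMPDH1 and ATIC kept the top places at 5082 ± 620, 1041 ± 143 and 600 ± 23.2 per kilobase. PFAS moved from place 4 to place 9, at 218 ± 59.4 per kilobase, overlapping GMPS at 230 ± 36.3. PPAT was again lowest at 137 ± 16.0. With the longest coding transcript as the length instead, PFAS went from place 5 to place 9. That length was the same for GMPS, at 8751 bases, and close for PAICS, at 6480 against 6703 bases. The order with shorter transcripts was not tested. The annotation the authors counted in was not given in the sources used here, so the lengths are those of GENCODE 29.

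The libraries within a group also differed from each other. Among the 22d libraries, replicate 2 was the highest for 7 of the 10 genes, and replicates 1 and 3 were the lowest for 5 each. Among the DMSO libraries, replicate 1 was the highest for 6 genes and replicate 2 the lowest for 6. The median deviation of the 10 genes from their group mean, on the log2 scale, ran from -0.09 in DMSO replicate 2 to 0.16 in 22d replicate 2. The same counts and deviations were not taken over all genes tested, so nothing particular to the 10 genes is read from them.

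Several of the genes overlap others in GENCODE 29, and the library kit named in the labels does not mark strand. GART overlaps SON on the opposite strand by 874 bases at its start. SON, which encodes an RNA splicing cofactor, had 7817 ± 412 normalized counts under DMSO and 5919 ± 169 under 22d (SD, n = 3 each). By limma SON fell by 0.40 (adjusted p = 0.0031, SE 0.10). PFAS overlaps CTC1, a telomere maintenance gene, by 478 bases on the opposite strand. CTC1 averaged 652 ± 42.3 normalized counts under DMSO and 548 ± 88.3 under 22d (SD, n = 3 each) and did not pass (log2 fold change -0.26, limma adjusted p = 0.12). ADSL overlaps SGSM3 on the same strand, and SGSM3 did not pass either (0.09, limma adjusted p = 0.60). AL022238.4, a protein-coding gene with no counts under that name, overlaps ADSL by 43935 bases on the same strand. AC068620.3, a pseudogene also without counts, overlaps PPAT by 21033 bases on the opposite strand. With its RefSeq start at 56410507, PAICS would also overlap PPAT on the opposite strand. The part of overlapping genes in the values of GART, PFAS, ADSL, PPAT and PAICS was not tested.

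The RefSeq promoter windows, from 250 bases before to 50 after a start, were searched on both strands for 4 motifs. Of the 10 genes, 8 matched by symbol, with 13 windows in all, and IMPDH2 and ADSL had no window. The E-box CACGTG, to which MYC and related factors bind, was present in 3 of 13 windows, those of ATIC, PPAT and PAICS, against 7.26% of all 35116 windows. The PPAT window and the PAICS window with its start at 56435752 hold the same copy, and ATIC holds 2 copies. The PAICS windows with starts at 56410507 and 56436260 hold none. The matches are shown with their flanks because these are the only windows of these genes with CACGTG; capitals mark it (GRCh38.p14, plus strand, chr2:215312001-215312030, chr2:215312076-215312105 and chr4:56435780-56435809).
ATIC, first: gggccggcgggcCACGTGataagcccggaa
ATIC, second: ctcctacctgcgCACGTGgtgccgccgctg
PPAT and PAICS: ctgtatttgctgCACGTGgaaatctccgtt

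The GC box GGGCGG was in 10 of 13 windows (all windows, 45%) and in at least 1 window of each of the 8 genes. The 45% is a share of windows, not of genes, and ADSS, PAICS and GART have more than 1 window. The PPAT window and the PAICS window with its start at 56435752 share their copies. CCAAT was in 3 windows, all of GART (all windows, 34.6%), and TTTGGCGC or TTTCGCGC, forms of the E2F site, in 1 GART window (all windows, 1.15%). CACGTG was absent from the windows of ADSS, GMPS, IMPDH1, PFAS and GART. The PFAS stretch before the RefSeq start is shown because PFAS had the deepest fall. It leaves out the bases nearest the start that GENCODE 29 has in an exon, and capitals mark its single GC box. GENCODE 29 also has an earlier start for PFAS, so that this stretch lies inside the gene in that annotation, outside its exons (GRCh38.p14, chr17:8249039-8249285, plus strand).
PFAS: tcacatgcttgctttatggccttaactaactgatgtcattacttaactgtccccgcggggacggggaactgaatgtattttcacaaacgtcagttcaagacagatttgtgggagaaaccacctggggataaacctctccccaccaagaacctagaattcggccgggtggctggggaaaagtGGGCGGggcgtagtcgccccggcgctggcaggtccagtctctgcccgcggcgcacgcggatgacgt

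A motif match describes these letters only, and no binding was measured in these libraries. The part of the motifs in the falls was not tested. A list of 11 regulators of nucleotide synthesis genes held MYC, genes of the MAX network, ATF4, NRF1, MTOR and RPTOR, but no gene of the SP, NF-Y or E2F factors. Of these, 4 fell, 3 rose and 4 did not pass, where 29.6% of all genes tested were called lower and 28.5% higher. With scaling by library totals or quantile normalization 5 rose, where 5278 and 3944 of the 13297 genes tested were called higher. Without 22d replicate 3, 1 rose, where 3396 of all genes tested were called higher. MYC held 17223, 17575 and 15582 normalized counts in DMSO replicates 1 to 3 and 6550, 10694 and 12021 with 22d, and fell by 0.83 (SE 0.18, limma adjusted p = 0.0014). RPTOR, a subunit of the growth-control kinase complex mTORC1, fell by 0.87. MXD1, a MAX partner that opposes MYC, rose by 0.87 (limma adjusted p = 2.2e-04).

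The supply routes of the pathway were described from lists of neighbouring genes, and their counts can be read against 28.5% of all genes tested called higher and 29.6% called lower. The PRPP synthetase genes PRPS1 and PRPS2, which make the starting substrate, fell. PRPS1 went from 1834, 1739 and 1670 normalized counts in DMSO replicates 1 to 3 to 685, 806 and 725 with 22d, a fall of 1.24 (SE 0.11, limma adjusted p = 1.3e-06). PRPS2 fell by 0.98. PRPSAP2, which encodes a protein associated with the synthetase, rose by 0.88, with 390 ± 68.0 normalized counts under DMSO and 717 ± 77.0 under 22d (SD, n = 3 each), and PRPSAP1 did not pass (-0.18, limma adjusted p = 0.25).

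Of 14 folate one-carbon genes tested, of 18 listed, 10 fell and 3 rose, with a median of -0.88. ALDH1L2, a mitochondrial formyl tetrahydrofolate dehydrogenase, fell by 1.96. MTHFD1, the cytosolic enzyme that makes the formyl tetrahydrofolate used by GART and ATIC, averaged 4717 ± 626 normalized counts under DMSO and 1298 ± 86.8 under 22d (SD, n = 3 each). MTHFD1 fell by 1.85 (SE 0.12, limma adjusted p = 8.9e-08). The mitochondrial serine hydroxymethyltransferase gene SHMT2 fell by 0.86. Its pathway partner MTHFD2 did not follow: it stood at 2699 normalized counts with DMSO and 3344 with 22d, which limma called higher by 0.30 in log2 (SE 0.12, adjusted p = 0.039). That rise was not past the test when any library but 22d replicate 3 was left out (adjusted p = 0.059 to 0.13).

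Among 8 serine and glutamine supply genes, 4 fell and the other 4 did not pass. PSAT1 and PHGDH, enzymes of serine synthesis, fell by 2.22 and 2.11. The glutamine synthetase gene GLUL did not pass (0.25, limma adjusted p = 0.17).

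Salvage, which recovers free bases and nucleosides, moved largely the same way in the deposited scaling, with 6 of 9 genes lower, 1 higher and 2 not past the test. Scaled by library totals, 3 were lower and 2 higher, where 2766 of the 13297 genes tested were called lower and 5278 higher. HPRT1, which recovers hypoxanthine and guanine, fell by 1.08 (SE 0.12, limma adjusted p = 7.0e-06). APRT, which recovers adenine, held 6118, 4851 and 4931 normalized counts in DMSO replicates 1 to 3 and 1646, 2289 and 2047 with 22d, a fall of 1.41. ADA, adenosine deaminase, averaged 1859 ± 177 normalized counts under DMSO and 3545 ± 184 under 22d (SD, n = 3 each), and rose by 0.93 (SE 0.11, limma adjusted p = 1.0e-05).

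Of 18 genes of purine nucleotide interconversion and breakdown tested, of 23 listed, 8 fell, 3 rose and 7 did not pass. The median was -0.24. Without DMSO replicate 1, 1 gene rose, where 3260 of all genes tested were called higher. The nucleoside diphosphate kinase genes NME1 and NME4 fell by 2.16 and 1.17, and NME1 ranged from 81.1 to 216 normalized counts with 22d. The AMP deaminase gene AMPD3 rose by 0.91 (SE 0.18, limma adjusted p = 9.3e-04). ADSSL1, the isozyme gene of ADSS, averaged 311 normalized counts under DMSO and 241 under 22d and fell by 0.36 (SE 0.14, limma adjusted p = 0.038). In the authors' deposited table its adjusted p was 0.056, which is not past the threshold.

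The parallel de novo pathway of pyrimidines had 4 of 6 genes lower, with the other 2 not past the test and a median of -1.28. CAD, which encodes the enzyme of its opening steps, fell by 1.84 (SE 0.14, limma adjusted p = 3.0e-07), and the CTP synthetase gene CTPS1 fell by 1.45. CTPS2, the other CTP synthetase gene, did not pass (0.02, limma adjusted p = 0.88).

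**Figure D4:**
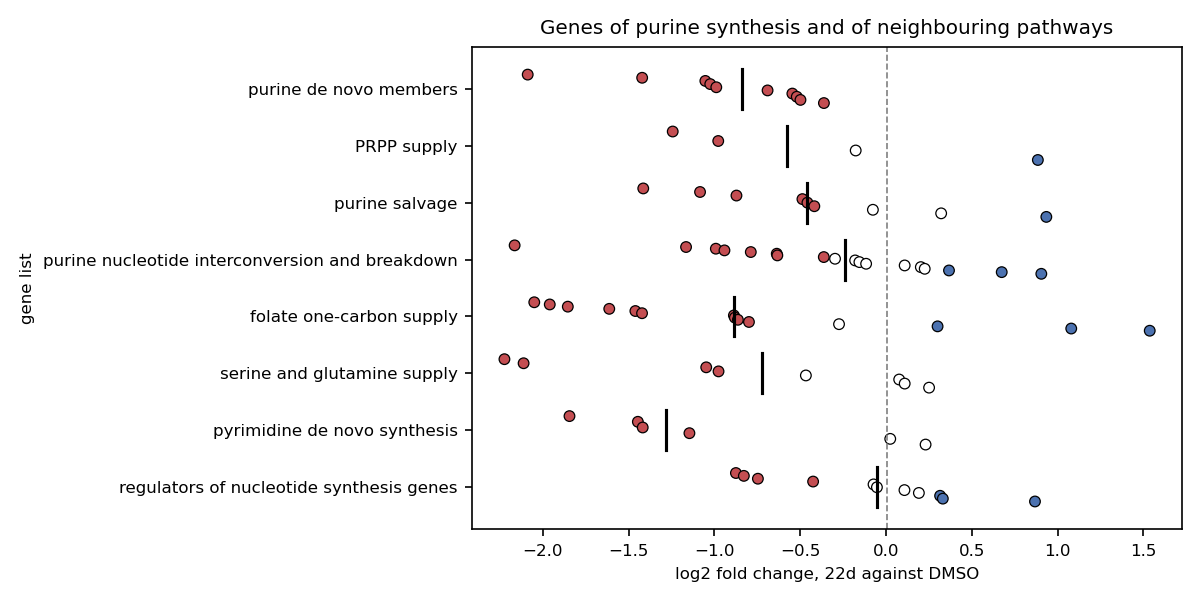
Log2 fold change of 22d against DMSO (horizontal axis) for each tested gene of purine synthesis and of 7 neighbouring lists (vertical axis); red points passed the limma test as lower, blue as higher, white did not pass, the black line is the list's median and the dashed line the median of all genes tested. All 10 purine synthesis genes are red with a median of -0.84, and in the pyrimidine list 4 of 6 are red with a median of -1.28.

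The mean log2 level of the 10 genes followed the groups closely, and 1975 genes correlated with it across the 6 libraries at a Pearson r over 0.95. Among the 5 genes most like it were MCM10, a DNA replication gene, METTL2B, the mitotic kinase gene PBK and the mitochondrial channel gene VDAC1, each with r of at least 0.9992 over 6 libraries. These libraries fall into 2 groups, so such values mainly restate the group difference. After the group means were subtracted, the 5 most alike were AASDH, SRSF6, MCM10, HCFC1R1 and VDAC1, each with r of at least 0.9957 over the same 6 libraries, and 98 genes had r over 0.95. These are the top values among all 13297 genes tested over few libraries, and nothing is read from them; AASDH rose by 0.56 with 22d while the 10 genes fell. MCM10 fell by 3.26, and the part of slower growth or fewer replicating cells in the purine gene values was not tested.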

How the data were processed

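RNA of 6 MV4-11 libraries (3 with DMSO, 3 with 22d) was used. The submitters' processing notes name STAR, HTSeq, DESeq2, cutadapt and FastQC and the build hg38; their versions, the annotation release and the strand setting are not given in the sources used here. The deposited table gives, per the file headers, each library's normalized signal, the authors' log2 fold change with its SE, a test score, a p-value and an adjusted p-value. Columns were matched to libraries by arm and number. Multiplied by 1 size factor per library, 100% of the signal values were whole reads within 0.001, giving 19995430 to 23749257 reads per library.

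The main test was limma-trend on log2(value + 1) for genes with a mean of at least 10, with Benjamini-Hochberg adjustment over all 13297 genes tested and a threshold of 0.05; every fold change is on that log scale, which understates changes of low genes. edgeR's quasi-likelihood test and DESeq2 on the recovered counts, which the authors had normalized, were alternatives, as were other pseudocounts, filters and scalings, a replicate block and leaving out each library; edgeR called 7723 genes and limma 7718. The limma step was tested on data simulated with known scaling and far fewer changed genes than were called here. That test cannot speak to the choice of scaling. Level sums and ratios were compared by exact permutation. Versions were R 4.3.3, limma 3.58.1, edgeR 4.0.16, DESeq2 1.42.0, Python 3.11.15 and matplotlib 3.10.9.

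The genes and lists were chosen with earlier results of these data known. Named were the 10 pathway genes and, from each neighbouring list, among called genes the 1 that rose most and the 2 that fell most; MYC, MTHFD2, MTHFD1, SHMT2, HPRT1, APRT, PRPS1, PRPS2 and CAD; and the 5 genes most correlated with the pathway genes. PRPSAP1, GLUL, CTPS2, ADSSL1, SON, CTC1 and SGSM3 were added after their values were seen. Some genes that this rule names are not reported here. Gene positions and lengths are from GENCODE 29 and promoter sequences from RefSeq.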

Additional observations from a re-analysis of the deposited data

How the results depend on the processing

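Of the 10 purine synthesis genes, 10 were called lower in the deposited scaling, 7 with scaling by library totals, 8 with quantile normalization, and 9 to 10 with 1 library left out; the log2 fold changes kept their sign in all settings, and those of GART, PFAS, PAICS, ADSL, ATIC and IMPDH1 passed in each. Of the 13297 genes tested, 3934 were called lower in the deposited scaling, 2766 with library totals and 3647 with quantile normalization. With 1 library left out, 3422 to 3836 were lower. Genes called higher numbered 5278 with library totals, 3944 with quantile normalization and 3260 to 3592 with 1 library left out. All calls numbered 6682 to 7428 with 1 library left out. Scaled by library totals, 65.6% of the calls were higher against 49.0%. With library totals the summed level of the 10 genes differed by -13401 normalized counts, against -18188 in the deposited scaling, with an exact permutation p of 0.10 in both, the smallest possible. Library totals also gave salvage counts of 2 higher and 3 lower, and 5 higher among interconversion genes. With library totals and with quantile normalization, 2 serine and glutamine genes, 1 pyrimidine gene and 5 regulators were higher. With 1 library left out, genes called higher ranged from 1 (without DMSO replicate 1) to 3 among interconversion genes, from 0 to 1 (without 22d replicate 2) in the serine and glutamine list, from 0 to 1 (without DMSO replicate 3) in the pyrimidine list, and from 1 (without 22d replicate 3) to 2 among the regulators. The 22d minus DMSO difference in the mean log2 ratio of GMPS to ADSS was -0.05 with all libraries. It changed sign to 0.0082 without 22d replicate 2 and 0.018 without 22d replicate 3. Over the libraries left out it ranged from -0.17 to 0.018. The cause of these shifts was not tested.

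The labels do not say whether a replicate number pairs a DMSO with a 22d library. Same-numbered libraries correlated at -0.03, -0.02 and -0.10 in their deviations from the group means, and different-numbered ones at -0.11 to 0.17. With so few libraries these values cannot show whether the numbers mark a shared culture or day. With the replicate number as a block, 10 of the 10 purine synthesis genes and 7419 genes in all were called, and of the named genes MTHFD2 was not past the test (0.30, limma adjusted p = 0.054).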
